A study of Mus musculus with 3 samples.

Results

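The 9 genes described here, G6pc, Pcx, Fbp1, Igfbp1, Tat, Angptl8, Ppp1r3b, Rgs16 and G0s2, are genes whose RNA in the liver is known to follow fasting, refeeding or the hormones that go with them. They were found by their symbols among 55357 genes listed for the mouse, and all 9 were present once. They were chosen by their levels in hepatocytes and T cells of these same libraries, with earlier results of the data known, so the levels and ratios below are a description and no test. The data were single-cell RNA counts of 3 liver libraries. Each library pooled hepatocytes and nonparenchymal cells, mixed 1:1, from 2 wild-type male C57BL/6 mice that were 8 weeks old at the start. The control library (CON) came from untreated mice. The HFD library came from mice that ate a diet with 60% of its energy as fat for 4 months. The CCl4 library came from mice kept on chow for 3 months and then given intraperitoneal injections of 0.1 mL of 10% CCl4, a hepatotoxin, 2 times per week for 4 weeks. There was 1 library per condition, so no test across samples was possible, and treatment, mice, preparation and time of collection cannot be told apart. Whether the mice had fed, and at what time of day the livers were taken, is not given in the sources used here. All intervals are 95% intervals that cover counting error only.

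When an animal fasts, glucagon and glucocorticoids turn the liver towards making glucose, and insulin released after a meal turns it back towards storing glucose as glycogen and fat. G6pc (glucose-6-phosphatase) carries out the last step of glucose release, Fbp1 (fructose-bisphosphatase) an earlier step, and Pcx (pyruvate carboxylase) the entry of pyruvate into the pathway. Igfbp1 encodes a binding protein for insulin-like growth factors that insulin represses, and Tat (tyrosine aminotransferase) breaks down tyrosine and is a classical target of glucocorticoids and glucagon. Angptl8 encodes a secreted inhibitor of lipoprotein lipase activity that is induced by feeding, and Ppp1r3b encodes the subunit that brings protein phosphatase 1 to glycogen. Rgs16 shortens signalling by G proteins, and its liver RNA is known to vary with the time of feeding. G0s2 inhibits adipose triglyceride lipase, the enzyme that starts the breakdown of stored triglyceride.

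All 9 are protein-coding genes in the GENCODE annotation of GRCm38. G6pc (ENSMUSG00000078650) and Igfbp1 (ENSMUSG00000020429) lie on the plus strand of chromosome 11, G6pc from 101367561 to 101377903 and Igfbp1 from 7197782 to 7202546. Rgs16 lies on chromosome 1 from 153740349 to 153745468 on the plus strand, and G0s2 on the minus strand of the same chromosome from 193272161 to 193273217. Tat (109990437 to 109999803) and Ppp1r3b (35375739 to 35388139) are on the plus strand of chromosome 8, Angptl8 is on the plus strand of chromosome 9 (21835510 to 21837347), Fbp1 on the minus strand of chromosome 13 (62864753 to 62888282) and Pcx on the plus strand of chromosome 19 (4510472 to 4621752). Angptl8 lies within the span of Dock6 and G0s2 overlaps Lamb3, both on the opposite strand, and whether the counting used the strand is not given in the sources used here. In hepatocytes, Dock6 ranged from 4.92 to 7.69 CPM (unique RNA molecules of a gene, counted as UMIs, per 1e+06 UMIs of the same class of cells) and Lamb3 from 1.23 to 3.53 CPM over the 3 libraries. The genes on the opposite strand of Pcx (Lrfn4), Ppp1r3b (Gm45469) and Rgs16 (Gm28513) had 0 or 1 counted molecule each in the hepatocytes of any library.

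G6pc and Igfbp1 are the textbook pair of genes that insulin represses through an insulin response element, and they differed from control in opposite directions in these libraries, so their promoters are shown. Of the 9 genes, 8 were in the RefSeq promoter table (GRCm38.p6), with 9 windows in all since Pcx has 2. The 250 bases before each start were searched on both strands for 5 short motifs. The core CAAAACA of the insulin response element was in 2 of the 9 windows, those of G6pc and Igfbp1, and in 5.56% of the 32851 windows of all genes. It lay from base -108 to -102 from the RefSeq start of Igfbp1 on the gene's strand, and from -174 to -168 of G6pc on the other strand, where it reads TGTTTTG. Both sequences below run 5′ to 3′ on the plus strand and stop where the first annotated transcript begins, and capitals mark the core.
G6pc, chr11:101367466-101367560: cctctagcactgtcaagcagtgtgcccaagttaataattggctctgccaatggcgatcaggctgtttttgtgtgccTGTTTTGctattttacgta
Igfbp1, chr11:7197537-7197781: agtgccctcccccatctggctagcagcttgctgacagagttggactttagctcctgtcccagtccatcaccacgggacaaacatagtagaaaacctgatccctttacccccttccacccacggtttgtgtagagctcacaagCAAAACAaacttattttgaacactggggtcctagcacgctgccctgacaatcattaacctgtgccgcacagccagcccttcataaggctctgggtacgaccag
The CRE half-site TGACG was in the G0s2 window (17.8% of all windows hold it) and the E-box CACGTG in 1 of the Pcx windows (6.02%). The FOXO core GTAAACA (3.17%) and the glucocorticoid response half-site AGAACA (16.1%) were in none of the 9 windows. The motifs CAAAACA and GTAAACA share their last letters, but with no match of GTAAACA in these windows no overlap could occur. A match is a run of letters and not a measured binding site.

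The libraries held 11245 (control), 12984 (HFD) and 12761 (CCl4) barcodes with 34061186 to 49613255 counted molecules (UMIs, unique molecular identifiers), and a median of 2173 to 2939 UMIs per barcode. From 36 to 52 barcodes were shared by each pair of libraries. Clusters were named from marker genes, and hepatocytes were taken as barcodes of hepatocyte clusters with 3 to 30% mitochondrial UMIs and no UMI of the leukocyte gene Ptprc. This left 1221, 838 and 2298 cells with a median of 8300, 3619 and 3130.5 UMIs (control, HFD, CCl4), all 10 hepatocyte markers being counted in each library. Different clusters held most of them in each library. One cluster led by Steap4, Il1r1 and Serpina3n held 98.4% of the control cells, one led by G6pc, Etnppl and Lpin1 held 94.5% of the CCl4 cells, and 2 clusters, one led by Foxq1, Scd1 and Fasn and the other by Cyp1a2, Slc1a2 and Glul, held 54.4% and 42.7% of the HFD cells. Markers of cholangiocytes summed to 440, 60.6 and 149 CPM in these hepatocytes (1, 2 and 4 of 7 at 0) and those of granulocytes to 124, 56.3 and 11.4 CPM (0, 0 and 1 of 6 at 0), and their part in the results was not tested. A further 3593, 5509 and 4661 droplets of hepatocyte clusters had under 3% mitochondrial UMIs and are given separately. T cells, 1702, 2081 and 1943 of them with a median of 2351, 2201 and 2009 UMIs, serve as the measure of free RNA, the RNA of broken cells that enters every droplet, since T cells make no albumin. Free RNA was far from equal. Alb, the albumin gene, stood in T cells at 16.2% of its hepatocyte level in the control library, at 47.4% in HFD and at 56.6% in CCl4.

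Between HFD and control hepatocytes, 4 of the 8 members with at least 50 CPM in 1 of the libraries were higher by at least 2-fold (G6pc, Ppp1r3b, Rgs16 and G0s2), beside 6.97% of all 2712 genes, and 1 was lower (Igfbp1), beside 6.64%. In the CCl4 library, 6 of 9 were at least 2-fold above control (the same 4, Fbp1 and Angptl8), beside 7.76% of 2656 genes, and Igfbp1 was again lower, beside 8.55%. CCl4 stood above HFD by at least 2-fold for 6 of 9 (G6pc, Tat, Angptl8, Ppp1r3b, Rgs16 and G0s2), beside 3.07% of 2639 genes, and 0 members were lower, beside 4.85%. Here 2-fold refers to the ratio of CPM after adding 5, and ratios quoted below are of CPM with nothing added. The median log2 ratio of the members was 1.00 for HFD over control, 2.66 for CCl4 over control and 1.13 for CCl4 over HFD, against 0.13, 0.07 and -0.04 for all genes. With median of ratios scaling, all genes past 2-fold in HFD over control split into 148 higher and 212 lower in place of 189 and 180, and the members' counts were as given. Clusters made without the members also gave these counts. The comparisons with control share that 1 library, so they are not independent of each other.

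**Figure D1:**
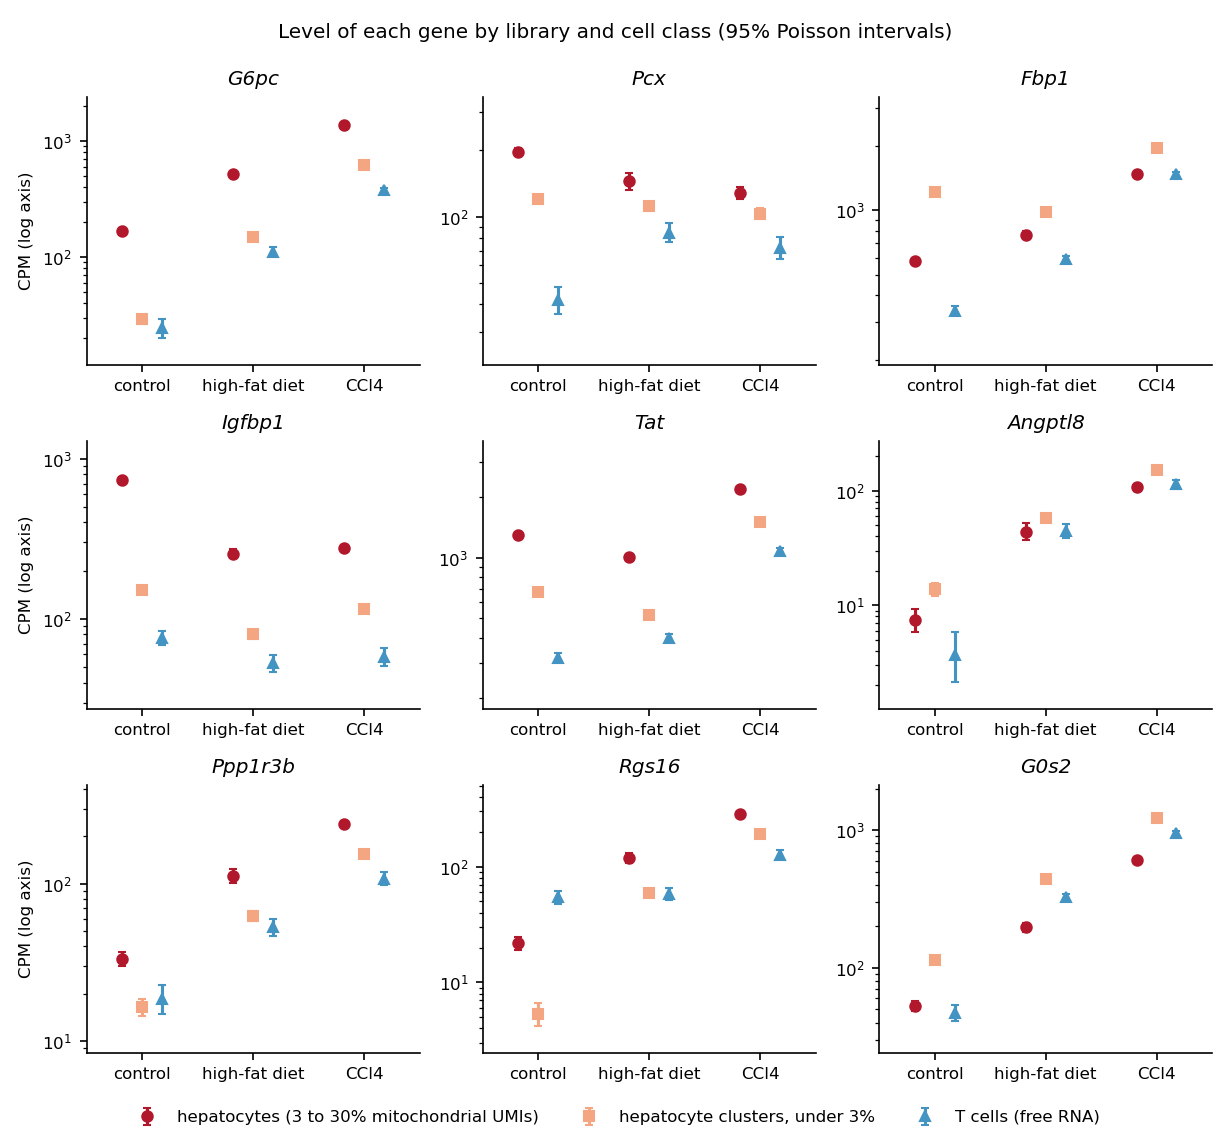
Level of each gene (CPM, log axis) in hepatocytes, in hepatocyte-cluster droplets with under 3% mitochondrial UMIs and in T cells of the 3 libraries, with 95% Poisson intervals. G6pc climbs from 169 to 521 and 1379 CPM in hepatocytes, Igfbp1 is highest in the control library at 740 CPM, and Angptl8 and G0s2 are as high or higher in T cells of the HFD and CCl4 libraries.

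Among the gluconeogenic enzymes, G6pc differed most. Its level in hepatocytes was 169 CPM (161 to 177) for control, 521 CPM (496 to 546) in HFD and 1379 CPM (1354 to 1404) in CCl4. The 3 intervals did not overlap, and the ratios were 3.08 (2.88 to 3.29) for HFD over control, 8.16 (7.77 to 8.58) for CCl4 over control and 2.65 (2.52 to 2.79) for CCl4 over HFD. After thinning every cell to 1000 UMIs, to set the libraries at 1 depth, a G6pc UMI was expected in 15.2% of control, 39.2% of HFD and 71.5% of CCl4 hepatocytes (60.4%, 78.9% and 95.3% before thinning). The same shares in T cells were 2.62%, 10.6% and 31.3% after thinning, so the share in CCl4 T cells was above that in control hepatocytes. In CCl4 hepatocytes the highest count in 1 cell was 38 UMIs, against 15 in control and 12 in HFD.

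Fbp1 and Pcx, in the same pathway, differed by less. Fbp1 had the order of G6pc and was at 579 CPM (564 to 593) in control, 769 CPM (739 to 800) in HFD and 1473 CPM (1448 to 1499) in CCl4 hepatocytes, 2.55-fold (2.47 to 2.62) above control with CCl4. In the droplets with few mitochondrial UMIs Fbp1 was higher than in hepatocytes in every library, at 1212, 982 and 1957 CPM. Pcx went the other way, with 196 CPM (188 to 205) in control, 145 CPM (132 to 158) in HFD and 128 CPM (121 to 136) in CCl4. Its ratio to control was 0.736 (0.665 to 0.814) in HFD and 0.653 (0.607 to 0.703) in CCl4, neither past 2-fold. The interval between the HFD and CCl4 levels of Pcx barely excluded equality, at 0.887 (0.795 to 0.990).

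Igfbp1 was the only member past 2-fold downwards. Control hepatocytes held 740 CPM (724 to 756), HFD 256 CPM (239 to 274) and CCl4 276 CPM (265 to 287). Both treated libraries were thus well below control, at ratios of 0.345 (0.321 to 0.371) and 0.372 (0.356 to 0.390), and did not differ from each other beyond counting error (1.08, 0.996 to 1.17). An Igfbp1 UMI was expected in 50.6% of thinned control hepatocytes, 21.3% in HFD and 23.1% in CCl4, beside 7.48%, 5.24% and 5.76% of thinned T cells. Tat followed neither Igfbp1 nor G6pc, with 1294 CPM (1273 to 1316) in control, 1006 CPM (972 to 1041) in HFD and 2210 CPM (2179 to 2242) in CCl4. It was thus lowest in HFD, 0.777-fold control (0.748 to 0.808), and highest in CCl4, 2.20-fold HFD (2.12 to 2.28).

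Ppp1r3b and Angptl8, the 2 members linked with feeding, were lowest in control and highest in CCl4. Ppp1r3b stood at 33.5 CPM (30.1 to 37.1), 112 CPM (101 to 124) and 238 CPM (228 to 249) in control, HFD and CCl4 hepatocytes. That is 3.34-fold (2.88 to 3.88) and 7.11-fold (6.35 to 7.97) above control. Angptl8 was at 7.42 CPM (5.89 to 9.24), 44.0 CPM (37.1 to 51.8) and 107 CPM (99.8 to 114), with a CCl4 to control ratio of 14.4 (11.4 to 18.3). Its HFD level was 5.92-fold control (4.48 to 7.89), but both were under 50 CPM and it was left out of the HFD count above. After thinning, an Angptl8 UMI was expected in 0.820%, 4.33% and 10.8% of hepatocytes and in 0.289%, 4.33% and 10.6% of T cells, so that in the HFD and CCl4 libraries the share was at the T cell background.

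Rgs16 and G0s2 had the same order of libraries. Rgs16 was at 21.9 CPM (19.2 to 24.9) in control, 119 CPM (107 to 131) in HFD and 286 CPM (274 to 297) in CCl4 hepatocytes. G0s2 was at 53.1 CPM (48.8 to 57.6), 197 CPM (182 to 212) and 601 CPM (585 to 618). Their CCl4 to control ratios were 13.0 (11.41 to 14.97) and 11.3 (10.4 to 12.4). Ranked by the ratio after adding 5 among 2833 genes with at least 50 CPM in 1 library, Rgs16, G0s2, Angptl8, G6pc and Ppp1r3b were at ranks 4, 5, 6, 8 and 14 for CCl4 over control, and Igfbp1 was at rank 2688.

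**Figure D2:**
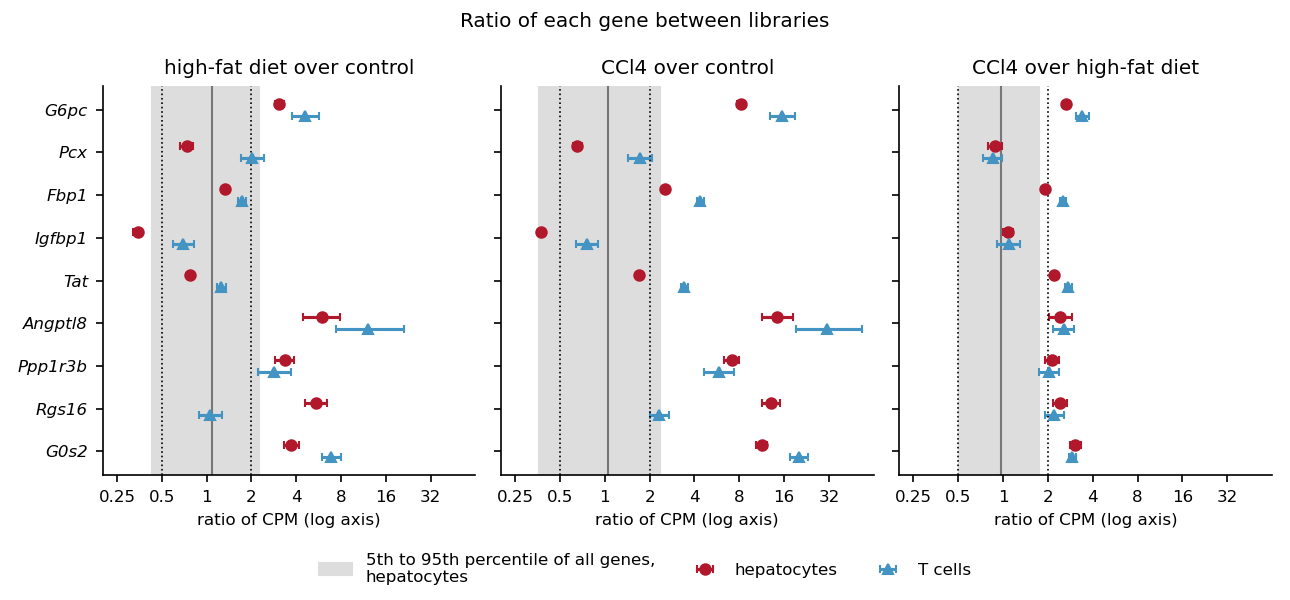
Ratio of CPM between libraries (log axis) for each gene in hepatocytes and in T cells, with exact conditional 95% intervals; dotted lines mark 2-fold, the grey band the 5th to 95th percentile and the grey line the median of all genes in hepatocytes after adding 5. In T cells, Angptl8 is 31.0-fold and G6pc 15.6-fold higher in CCl4 than in control, more than the 14.4-fold and 8.16-fold in hepatocytes.

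The same genes also differed between libraries in T cells. From control to CCl4, G6pc in T cells went from 24.3 to 379 CPM (15.6-fold, 12.9 to 19.0), Angptl8 from 3.66 to 114 CPM (31.0-fold, 19.2 to 53.7) and G0s2 from 47.4 to 949 CPM (20.0-fold, 17.5 to 23.1). Each hepatocyte level was therefore set against the T cells of its own library. In the control library 7 of the 9 genes were higher in hepatocytes than in T cells beyond counting error, 1 was within it and 1 was below. The counts in HFD were 7, 1 and 1, and in CCl4 6, 2 and 1. Of all 2833 genes with at least 50 CPM in the hepatocytes of 1 library, 58%, 53.5% and 55.3% were above T cells in control, HFD and CCl4, 10.4%, 17.6% and 15.5% within counting error and 31.6%, 28.8% and 29.3% below.

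**Figure D3:**
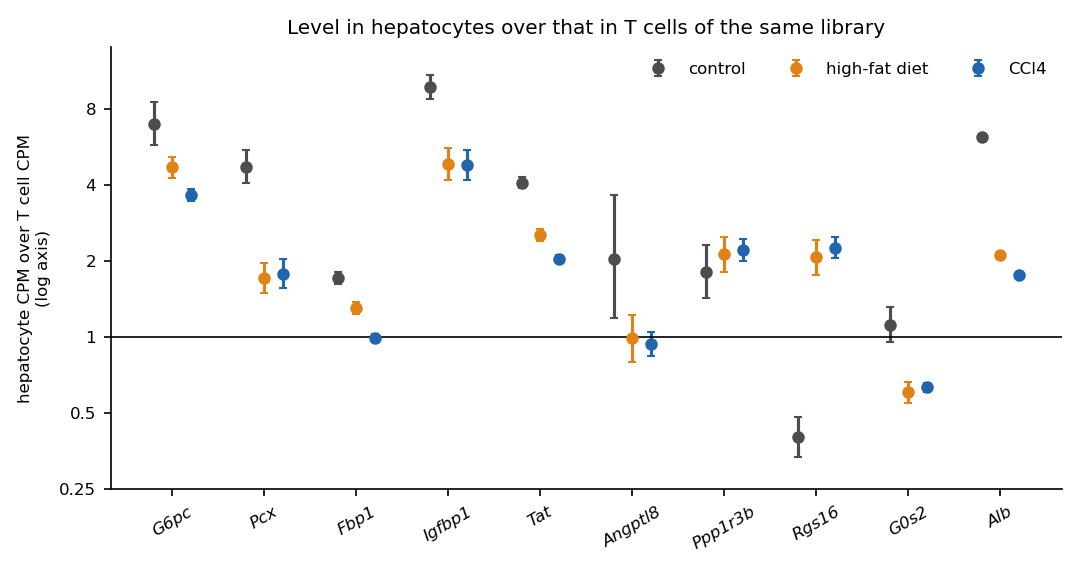
Hepatocyte CPM over T cell CPM of the same library (log axis) for each gene and for Alb, with exact conditional 95% intervals; the line marks equality. G6pc, Igfbp1, Tat, Pcx and Ppp1r3b are above 1 in all 3 libraries. Angptl8 in HFD and CCl4 and Fbp1 in CCl4 sit at 1, and G0s2 in HFD and CCl4 sits below it.

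G6pc stayed above T cells in every library, at 6.94-fold (5.74 to 8.47) in control, 4.68-fold (4.25 to 5.16) in HFD and 3.63-fold (3.45 to 3.83) in CCl4. Taking the T cell level off left 145, 409 and 999 CPM, ratios of 2.83 and 6.91 to control. This step takes free RNA to be the same share of UMIs in both classes, which was not tested. Depth differed most in control, with medians of 8300, 3619 and 3130.5 UMIs in hepatocytes against 2351, 2201 and 2009 in T cells (control, HFD, CCl4). The limit holds for every level left below. With the highest other class of at least 50 cells taken off in place of T cells, a choice made after seeing the data, 138, 386 and 421 CPM were left, since the 165 endothelial cells of CCl4 held G6pc at 958 CPM, and the ratios were 2.80 and 3.06. Ppp1r3b was 1.81-fold (1.43 to 2.32), 2.12-fold (1.80 to 2.50) and 2.21-fold (1.99 to 2.45) above T cells, and what was left, 14.98, 59.2 and 130 CPM, kept the same order. Igfbp1 was 9.73-fold, 4.82-fold and 4.77-fold above T cells, leaving 664 CPM in control against 203 and 218 CPM in HFD and CCl4. For Tat, 977, 608 and 1124 CPM were left, so its CCl4 level was 1.15-fold control on this scale. Against the highest other class, Tat in CCl4 turned to 0.551-fold control (777, 552 and 428 CPM left), Igfbp1 had 635, 179 and 104 CPM left, and Ppp1r3b was below granulocytes in control and had 30.8 and 30.1 CPM left in HFD and CCl4. That class was not the same in each library, being erythroid, B and endothelial cells for Tat and monocytes, erythroid and endothelial cells for G6pc. In CCl4 the median other class held G6pc at 379 CPM, Tat at 1077 and Igfbp1 at 57.8, against 958, 1782 and 171 CPM in endothelial cells. The cause was not tested.

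For the other members the comparison with T cells changed what could be read. G0s2 was lower in hepatocytes than in T cells in HFD (0.604-fold, 0.550 to 0.662) and CCl4 (0.633-fold, 0.607 to 0.660), and Angptl8 was within counting error of T cells there (0.990, 0.796 to 1.23, and 0.940, 0.840 to 1.05). Fbp1 was within counting error in CCl4 (0.995, 0.966 to 1.03). For these genes, each in the libraries just named, the CPM ratio to control was larger in T cells than in hepatocytes, and no hepatocyte CPM above that of T cells was measured. Counted per cell, without regard to depth, Angptl8 had a mean of 0.171 and 0.396 UMIs in hepatocytes against 0.105 and 0.247 in T cells (HFD, CCl4). Fbp1 in CCl4 had 5.46 against 3.22. G0s2 had 0.763 against 0.767 in HFD and 2.23 against 2.06 in CCl4. The part of depth was not tested. With the T cell level taken off, and levels under it set to 0, 3 members were at least 2-fold above control in CCl4 (G6pc, Ppp1r3b and Rgs16), beside 10.3% of 994 genes, and 3 below (Pcx, Fbp1 and Igfbp1), beside 38.8%, so the count of lower members was near that of all genes. In HFD over control 3 were higher (the same genes), beside 6.9% of 957, and 2 lower (Pcx and Igfbp1), beside 36.6%, and in CCl4 over HFD 3 were higher (again these), beside 9.15% of 787, and Fbp1 was lower, beside 13.2%. Angptl8 and G0s2 had at most 3.76 and 5.70 CPM left in any library. Being under 50 CPM, they were not in these counts. Rgs16 is in the counts over control with a control level set to 0, since control hepatocytes were under T cells (a difference of -32.6 CPM). Its calls over control therefore cannot be read as a difference between hepatocytes. The same holds for the calls of Fbp1 in CCl4 over control and over HFD. Its CCl4 level was set to 0 from a difference of -6.90 CPM, within counting error of T cells. Fbp1 in HFD, 1.33-fold control in hepatocytes, was 0.752-fold on this scale. Pcx was 4.70-fold above T cells in control but 1.71-fold and 1.78-fold in HFD and CCl4, so that 155, 60.0 and 56.2 CPM were left and its ratio to control became 0.388 and 0.364. Ttr and Apoa2, abundant transcripts of hepatocytes, were also higher in CCl4 T cells than in CCl4 hepatocytes (0.753-fold and 0.861-fold), so a level under that of T cells is not particular to G0s2.

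Rgs16 was the exception in the control library, where T cells held 54.5 CPM (48.0 to 61.6) and hepatocytes 21.9 CPM. Counted per cell, without regard to depth, the means were 0.149 UMIs in T cells and 0.193 in hepatocytes. Among the 13 other classes of at least 50 cells in that library, T cells had the highest Rgs16 level, NK cells held 23.9 CPM (18.7 to 30.02), B cells 9.24 CPM (5.92 to 13.8) and the median class 6.90 CPM. T cells are therefore not a clean measure of free Rgs16 RNA in the control library. With HFD and CCl4, hepatocytes were 2.06-fold (1.77 to 2.41) and 2.25-fold (2.05 to 2.48) above T cells. G0s2 was high in another class. Granulocytes held 2982 CPM (2910 to 3055) in control, 3134 CPM (3020 to 3252) in HFD and 2112 CPM (1910 to 2330) in CCl4, the highest of any class of at least 50 cells in each library. Ppp1r3b was higher in granulocytes (54.0 CPM) than in hepatocytes in control, and Fbp1 in CCl4 was highest in granulocytes at 1727 CPM. In control and HFD Fbp1 was highest in erythroid cells, at 776 CPM (706 to 851) and 925 CPM (851 to 1002). Against the highest other class, Fbp1 in hepatocytes was thus lower in every library.

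Free RNA of 1 source keeps its genes in 1 proportion, so the members were also expressed per 1000 Alb UMIs. Whether free RNA came from 1 source was not tested, and G0s2 was highest in granulocytes, as given above. In hepatocytes this gave G6pc values of 6.04, 13.1 and 20.6 in control, HFD and CCl4, and in T cells 5.37, 5.89 and 10.0. The proportion was thus close in both classes of the control library and higher in hepatocytes of the others. Angptl8 was at 0.265, 1.10 and 1.60 in hepatocytes and at 0.807, 2.35 and 3.00 in T cells, and G0s2 at 1.90, 4.93 and 8.99 against 10.4, 17.2 and 25.1. Relative to Alb, both genes were thus higher in HFD and CCl4 than in control in each class and were higher per Alb in T cells than in hepatocytes of every library. In the droplets of hepatocyte clusters with under 3% mitochondrial UMIs, Angptl8 was at 1.72, 2.61 and 3.18 and G0s2 at 14.3, 19.9 and 25.7, above T cells for both. Per Alb, Fbp1 was level in hepatocytes (20.7, 19.3 and 22.0) but not in T cells (74.7, 31.2 and 39.1). Igfbp1 went from 26.4 to 6.41 and 4.12 in hepatocytes and from 16.8 to 2.81 and 1.53 in T cells. Pcx went from 7.02 to 3.62 and 1.92 in hepatocytes and from 9.21 to 4.48 and 1.90 in T cells. Tat was at 46.2, 25.2 and 33.1 in hepatocytes and 70.0, 21.05 and 28.7 in T cells. In hepatocytes Ppp1r3b went from 1.20 to 2.81 and 3.56 and Rgs16 from 0.782 to 2.98 and 4.27, but in T cells both were highest in control (4.08, 2.79 and 2.85 for Ppp1r3b and 12.0, 3.05 and 3.35 for Rgs16). Albumin itself went from 27985 to 39892 and 66851 CPM in hepatocytes, and its part in these proportions was not tested.

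The droplets of hepatocyte clusters with under 3% mitochondrial UMIs had the same order of libraries as hepatocytes for all members but Fbp1. Fbp1 was higher in control than in HFD there, at 1212, 982 and 1957 CPM in control, HFD and CCl4. G6pc was at 29.1, 150 and 626 CPM there, Angptl8 at 13.7, 58.2 and 151 CPM, Ppp1r3b at 16.4, 62.5 and 154 CPM, Rgs16 at 5.31, 59.3 and 193 CPM and G0s2 at 115, 445 and 1223 CPM. Igfbp1 was again highest in control, at 152 CPM against 80.0 and 115 CPM. Its ratios to control, 0.528 (0.491 to 0.567) in HFD and 0.760 (0.710 to 0.814) in CCl4, did not pass 2-fold. Tat was at 677, 522 and 1509 CPM, past 2-fold in CCl4 over control (2.23, 2.17 to 2.28), and Pcx at 120, 111 and 103 CPM. Members thus split in which droplets they favoured. G6pc, Igfbp1, Tat, Pcx, Ppp1r3b and Rgs16 were higher in hepatocytes with 3% or more mitochondrial UMIs in all 3 libraries, from 1.24-fold (Pcx in CCl4) to 5.81-fold (G6pc in control), while Fbp1, Angptl8 and G0s2 were lower there in all 3, from 0.442-fold (G0s2 in HFD) to 0.784-fold (Fbp1 in HFD). In the droplets with under 3%, G0s2 was above T cells in every library (47.4, 325 and 949 CPM in T cells of control, HFD and CCl4). Angptl8 was above T cells in HFD and CCl4 (44.4 and 114 CPM in T cells), and Fbp1 in CCl4 (1957 against 1480 CPM). None of these intervals overlapped, and the cause was not tested.

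Hepatocytes of each library were further ordered by genes of the pericentral zone, around the central vein, against genes of the periportal zone, where blood enters, and cut into 3 equal groups. No member is in these lists. Gluconeogenesis is known as a periportal task of the liver lobule. In control the periportal group held Cyp2e1, a pericentral gene, at 25.9 CPM and the pericentral group at 3114 CPM, and in HFD at 307 and 5607 CPM. In CCl4 the periportal group held 0 Cyp2e1 UMIs and the pericentral group 847 CPM, while the periportal gene Cyp2f2 differed only 1.24-fold between them. The score at which the CCl4 pericentral group began, -3.73, was the score at which the control periportal group ended, so the CCl4 groups are not the same zones as those of control. From 13.7% to 20.2% of cells lay within 0.1 SD of a cut.

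**Figure D4:**
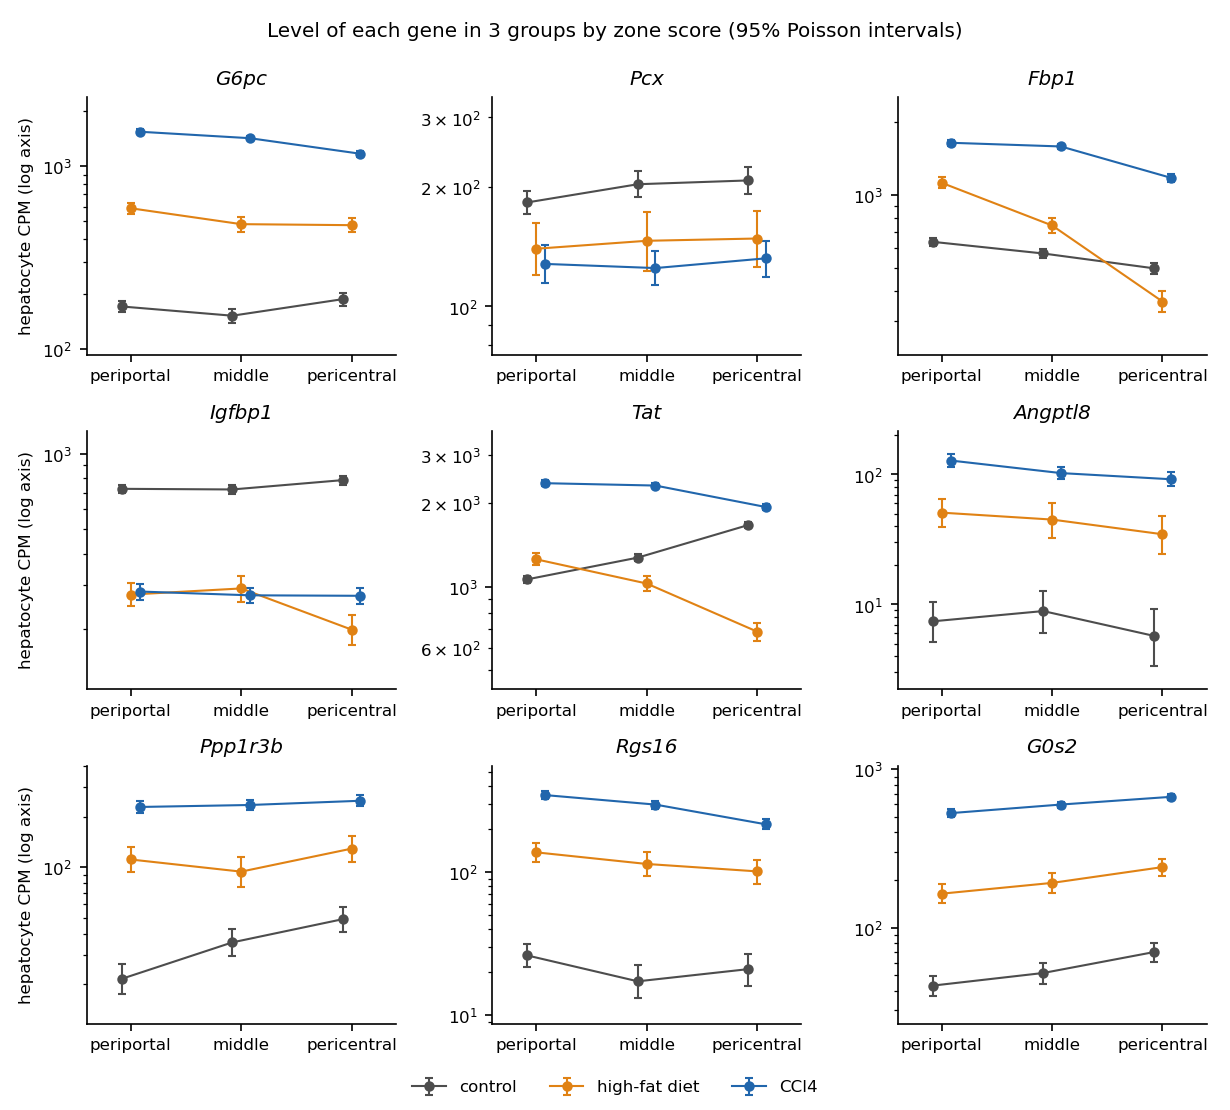
Hepatocyte level (CPM, log axis) of each gene in the periportal, middle and pericentral group of the zone score of each library, with 95% Poisson intervals. G6pc in CCl4 lies above HFD and HFD above control in every zone group, and Tat slopes upward towards the pericentral group in control and downward in HFD.

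The order of libraries for G6pc held within these groups. It was at 170, 588 and 1545 CPM in the periportal groups of control, HFD and CCl4, and at 187, 475 and 1170 CPM in the pericentral groups. Its periportal to pericentral ratio was 0.912 (0.816 to 1.02) in control, 1.24 (1.10 to 1.39) in HFD and 1.32 (1.26 to 1.38) in CCl4. The HFD ratio was within counting error with a minimum of 5% mitochondrial UMIs (1.15, 0.971 to 1.36) and with no minimum (0.981, 0.913 to 1.05). With no minimum G6pc was pericentral in control (0.852, 0.779 to 0.933) and at 1.79 (1.73 to 1.86) in CCl4. Fbp1 was periportal in all 3 libraries, at 1.29 (1.21 to 1.37), 3.10 (2.77 to 3.49) and 1.40 (1.34 to 1.47), and G0s2 pericentral in all 3, at 0.615 (0.502 to 0.752), 0.679 (0.562 to 0.820) and 0.789 (0.734 to 0.847). In control the periportal group held 191 G0s2 UMIs and the pericentral group 207, in 407 cells each. No hepatocyte CPM above T cells beyond counting error was found for G0s2 in any library, Angptl8 in HFD and CCl4 or Fbp1 in CCl4. The part of free RNA in their zone ratios was not tested. Tat turned round, at 0.637 (0.611 to 0.663) in control but 1.82 (1.67 to 2.00) in HFD and 1.22 (1.17 to 1.27) in CCl4. Igfbp1 did so by less, at 0.923 (0.875 to 0.974), 1.38 (1.16 to 1.65) and 1.04 (0.937 to 1.15). Its calls ended in HFD with no mitochondrial minimum (0.968, 0.875 to 1.07), and in control with a minimum of 5% (0.954, 0.897 to 1.01) or with the periportal list alone (0.951, 0.9002 to 1.01). With no mitochondrial minimum Igfbp1 was periportal in CCl4 (1.53, 1.41 to 1.67). Ppp1r3b was pericentral in control, 0.441 (0.337 to 0.575), and within counting error in the others, as was Pcx, at 0.880 (0.792 to 0.979) in control and 0.942 (0.755 to 1.18) and 0.968 (0.830 to 1.13) in HFD and CCl4. With no mitochondrial minimum Ppp1r3b was pericentral in HFD (0.815, 0.715 to 0.929) and periportal in CCl4 (1.12, 1.04 to 1.21). Pcx was then pericentral in HFD (0.808, 0.727 to 0.897). Rgs16 was at 1.25 (0.908 to 1.72) in control, 1.36 (1.06 to 1.75) in HFD and 1.60 (1.44 to 1.78) in CCl4, the highest ratio of the 9 there. With the periportal list alone, though, Rgs16 was within counting error in both treated libraries (1.27, 0.985 to 1.65, and 1.10, 0.994 to 1.21). In HFD it was so too with a minimum of 5% mitochondrial UMIs (0.960, 0.669 to 1.38) and with no minimum (0.951, 0.832 to 1.09). Angptl8 was within counting error in control (1.29, 0.700 to 2.47) and HFD (1.47, 0.960 to 2.27) and periportal in CCl4 (1.39, 1.18 to 1.65). With no mitochondrial minimum its CCl4 ratio turned to pericentral (0.855, 0.777 to 0.940). With the periportal list alone that ratio was within counting error (1.17, 0.998 to 1.38). By count, 5 members were higher in the pericentral group of control, beside 47.5% of 2815 genes, and 1 in the periportal group, beside 16.5%. In both HFD and CCl4 1 was pericentral, beside 25.3% and 24.6%, and 5 were periportal, beside 19% and 12.4%. In each library 3 were within counting error, beside 36%, 55.7% and 63% in control, HFD and CCl4. The control counts were thus near those of all genes. Without the minimum of mitochondrial UMIs HFD had 3 pericentral and 2 periportal members, and the share of all genes at that setting is not given here. Depth differed between groups, with medians of 10968 and 6820 UMIs in the periportal and pericentral groups of control, and its part was not tested.

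Against control, the wider fasting list moved in both directions, while wider refeeding genes past 2-fold were mostly higher. Of 17 other fasting genes, 12 reached 50 CPM in HFD or control. Of these, 1 was higher and 2 lower, beside 6.97% and 6.64% of all genes. In CCl4 or control 13 reached it, with 5 higher and 3 lower, beside 7.76% and 8.55%. Those higher with CCl4 were Got1, an aminotransferase (196 CPM in control, 1003 in CCl4), Lpin1, a phosphatidate phosphatase (152 and 919 CPM), Sds, serine dehydratase (135 and 358 CPM), Klf15, a transcription factor of amino acid breakdown (41.4 and 134 CPM), and Slc37a4, the glucose-6-phosphate transporter that works with G6pc (43.4 and 119 CPM). Sds at 397 CPM was higher in CCl4 T cells than in hepatocytes. Pck1, which makes phosphoenolpyruvate for gluconeogenesis, was at 1555, 1569 and 2929 CPM in control, HFD and CCl4 and did not pass 2-fold. Lower in CCl4 were Cebpb, Irs2 and Sik1, with Irs2, an adaptor of the insulin receptor, at 94.4, 57.2 and 30.6 CPM. The median log2 ratio of the list was -0.13, 0.58 and 0.83 for HFD over control, CCl4 over control and CCl4 over HFD. Summed, the list was at 4422, 3697 and 7040 CPM in hepatocytes of control, HFD and CCl4. In T cells it was at 1844, 2017 and 4007 CPM, and the part of free RNA was not tested.

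Of 17 other refeeding genes, 7 of 13 that reached 50 CPM were higher in HFD than in control and 0 lower, beside 6.97% and 6.64% of all genes. In CCl4 over control 8 of 14 were higher and 1 lower (Insig1), beside 7.76% and 8.55%. In CCl4 over HFD 0 were higher and 2 lower (Scd1 and Fasn), beside 3.07% and 4.85%. Srebf1, the transcription factor that drives fat synthesis, was at 62.8, 225 and 241 CPM in control, HFD and CCl4. Scd1, the stearoyl-CoA desaturase, was at 3252, 20943 and 5567 CPM, and Fasn, fatty acid synthase, at 146, 674 and 331 CPM. The median log2 ratio was 1.42, 1.10 and -0.31. G6pc on the fasting side and Srebf1 and Ppp1r3b on the refeeding side were thus lowest in the control library. The lipogenic Scd1 and Fasn were highest in HFD, where the summed level of the list was 24349 CPM against 5399 in control and 7938 in CCl4. T cells of the same libraries held the list at 11087.5 CPM in HFD against 1381 in control and 3174 in CCl4. The list thus differed in free RNA as well, whose part in these hepatocyte values and counts was not tested.

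Other programmes moved with the libraries, and their part in the members' differences was not tested. All 6 acute phase genes, which the liver makes in inflammation, were lower in both treated libraries, with a summed level of 33170 CPM in control, 2622 in HFD and 1949 in CCl4 hepatocytes. Saa1 alone went from 11310 to 521 and 169 CPM, so the control library was the one with an acute phase pattern. Of 7 glucocorticoid response genes, the metallothioneins Mt1 and Mt2 were lower in both libraries, and Fkbp5 (17.3, 8.61 and 57.5 CPM) and Tsc22d3 (56.3, 81.5 and 269 CPM) were highest in CCl4. Of 8 immediate-early and heat-shock genes, Egr1 was lower in both (1770, 798 and 859 CPM) and Atf3 in HFD. In the clock list, 3 of 10 genes reached 50 CPM in HFD or control. Dbp, a clock output gene, was at 11.4 CPM in control, 102 CPM in HFD and 29.8 CPM in CCl4. Pericentral genes were higher in HFD (5 of 8) and lower in CCl4 (6 of 7) than in control, and periportal genes higher in CCl4 (5 of 10, with Cdh1 lower).

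The genes whose pattern was most like that of G6pc over the 9 values of 3 libraries and 3 zone groups, among 2833 genes, were Tdo2 (Pearson r = 0.997), Dusp1 (0.995) and Fxyd1 (0.990). Tdo2, tryptophan dioxygenase, was at 699, 1420 and 2919 CPM and Dusp1, a MAP kinase phosphatase, at 142, 289 and 560 CPM in control, HFD and CCl4. For Angptl8 they were Khk (0.990), Dgat2 (0.989) and Ptms (0.988). Khk, ketohexokinase of fructose breakdown, was at 121, 251 and 385 CPM and Dgat2, which makes triglyceride, at 194, 282 and 362 CPM. The 9 values come from 3 libraries and share their depth and free RNA.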

How the data were processed

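Per the file headers, the deposited matrices hold raw counts of UMIs from Cell Ranger 7.2.0, made by the authors from 10X Genomics 3′ libraries. The methods of the study name mm10 and the submitters' processing notes GRCm39. The files hold no coordinates, so positions come from GENCODE M21 of GRCm38, in which 52081 of the 55357 identifiers were found. How barcodes were called as cells is not given in the sources used here.

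No barcode fell under 500 UMIs or 200 genes, and those above 30% mitochondrial UMIs were left out. The doublet caller Scrublet marked 2, 1 and 3 barcodes (control, HFD, CCl4), too few to have worked, so doublets remain. The libraries were clustered together with scanpy 1.11.5 in Python 3.11.15 (2000 variable genes, 30 components, 15 neighbours, Leiden resolution 1, without batch correction). Of 38 clusters, 35 were named from marker lists, by at least 3 markers among the 10 leading genes or else by the largest share of a list at 1.5 times the median cluster in at least 10% of cells. This rule was set after clusters had been seen.

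For each class in each library, UMIs were added up. Exact intervals (Poisson for CPM, Clopper-Pearson for shares, conditional for ratios) are at 95%. Mitochondrial and ribosomal protein genes were left out of the 2-fold counts. The zone score was the log2 level of summed pericentral genes minus that of summed periportal genes. Thinned shares are expected values without draws. Calls and intervals were tested on simulated counts. With 1 library per condition, no p-value was computed. The 9 genes and all other lists were chosen with earlier results of these data known. All 9 are named in each comparison between libraries, with T cells and between zones, and other genes where they were past 2-fold or needed beside a result. Alternatives covered the gates, doublet scores, clustering, scaling, free RNA, pseudocount, minimum level and the zone score.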

Additional observations from a re-analysis of the deposited data

Results flagged for a closer look

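The difference between hepatocytes and T cells went opposite ways in different libraries for Rgs16. The level in hepatocytes over that in T cells was 0.402 in control, 2.06 in HFD and 2.25 in CCl4, with T cells carrying the highest Rgs16 level of any other class in the control library only. The difference between libraries was not tested, since each is 1 library. Against B cells in place of T cells, a comparison chosen after seeing the data, control hepatocytes were at 21.9 CPM and B cells at 9.24 CPM.

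The zone of Tat also went opposite ways, with a periportal over pericentral ratio of 0.637 in control, 1.82 in HFD and 1.22 in CCl4. For Igfbp1 the ratios were 0.923, 1.38 and 1.04, of which the last was within counting error. With no mitochondrial minimum they were 0.882 (0.845 to 0.921), 0.968 (0.875 to 1.07) and 1.53 (1.41 to 1.67). Neither difference between libraries was tested.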

How the results depend on the processing

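Leaving out a replicate was not possible with 1 library per condition, and differences between mice are not covered by any interval. No paired analysis was possible because each condition is 1 library and no result comes from a test. Taking the T cell level off changed the counts most. HFD over control then had 2 members lower (Pcx and Igfbp1), CCl4 over control 3 higher (G6pc, Ppp1r3b and Rgs16) and 3 lower (Pcx, Fbp1 and Igfbp1), and CCl4 over HFD 3 higher and 1 lower (Fbp1), beside 36.6% of all genes lower in the first, 10.3% higher and 38.8% lower in the next and 9.15% and 13.2% in the last. Rgs16 was counted over control with its control level set to 0, and Fbp1 in CCl4 over control and over HFD with its CCl4 level set to 0. Angptl8 and G0s2, with under 50 CPM left, were not in these counts. With treated levels at or under those of T cells set to 0, some ratios to control after adding 5 went below 1. They were 0.571 and 0.571 for Angptl8 and 0.467 and 0.467 for G0s2 in HFD and CCl4, and 0.0204 for Fbp1 in CCl4. These follow only from the level left in control, 3.76 CPM for Angptl8, 5.70 for G0s2 and 240 for Fbp1. In control G0s2 was itself within counting error of T cells (1.12, 0.957 to 1.31). These ratios therefore cannot be read as a difference between hepatocytes. Fbp1 in HFD over control, not past 2-fold before, went to 0.752 of the level left in control. Taking off the highest other class moved the G6pc level left in CCl4 from 999 to 421 CPM. For the zones, HFD had 3 members higher on the periportal side with a minimum of 5% mitochondrial UMIs and 2 with no minimum, and no minimum gave 3 pericentral members in HFD and 2 in CCl4. With the periportal list alone, 3 members were pericentral in control and 3 periportal in CCl4. The cause of these changes was not tested, and the shares of all genes at these zone settings are not given here. Under the other settings, the counts stayed within 1.5 times, for 121 counts with settings listed at the start, against the 11 given above, and for all 27 with settings chosen after seeing the data (clusters made without the members, B cells as free RNA, shared barcodes left out, the pericentral list alone). Values outside these main counts were less stable. With settings listed at the start 226 stayed, 120 moved and 5 reversed, and with those chosen later 47 stayed and 10 moved. Median of ratios scaling moved the median log2 ratio of all genes for HFD over control from 0.13 to -0.001. With the T cell level off, 66 genes were higher and 350 lower in that comparison, of 957 at or above 50 CPM. Angptl8 entered the HFD count, making 5, with no mitochondrial minimum, with a minimum of 10 CPM and with a total outside the most abundant genes. Beside it, 142 of 2537, 326 of 7019 and 262 of 3459 genes were higher at these settings, in that order. In HFD Angptl8 was within counting error of T cells at the main setting (0.990). Its control level rests on 80 UMIs.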
